A study of Mus musculus with 12 samples.

Results

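The type I interferon response of muscle satellite cells was followed through 9 genes, Isg15, Ifit1, Ifit2, Ifit3, Irf1, Irf7, Stat2, Rsad2 and Oasl2, chosen by symbol. Each matched 1 row in both deposited count tables, so the set is 9 of 55385 genes, and all 9 were measured in every library. The cells came from hindlimb muscle of C57BL/6J mice and were frozen as soon as they had been isolated, without culture. There were 4 groups of 3 animals: females labelled Keap1 knockout (KO166, KO178 and KO188), females labelled Keap1 "Hetz" (Hetz164, Hetz165 and Hetz181, genotype given as heterogeneous), males labelled Keap1 knockout (KO240, KO247 and KO255) and males labelled Keap1 "Hetz" (Hetz204, Hetz245 and Hetz249). All controls thus carry a Keap1 label of their own, and no Keap1 wild-type group was analysed here. The groups are called KO-labelled and Het here, and names such as Hetz165 give the label and the animal number. The allele, any Cre driver and the ages are not given in the sources used here. The stated purpose of the study was to learn why KEAP1 and NRF2 signalling acts on satellite cells differently in the sexes.

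Type I interferons are secreted proteins that bind the receptor pair IFNAR1 and IFNAR2, whose kinases JAK1 and TYK2 pass the signal on to STAT2. STAT2 and IRF9 are subunits of the complex ISGF3, which binds the interferon-stimulated response element (ISRE) in the promoters of antiviral genes. Satellite cells, the resident stem cells of skeletal muscle, are marked by the transcription factor Pax7. KEAP1 holds the transcription factor NRF2 at a low level, and NRF2 drives antioxidant genes through the antioxidant response element (ARE).

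The 9 genes have different roles. Isg15 encodes a ubiquitin-like protein that is conjugated to other proteins, and lies at chr4:156199455-156200796 on the minus strand (GRCm38; ENSMUSG00000035692). Ifit1 (chr19:34640871-34650009), Ifit2 (chr19:34550694-34576419) and Ifit3 (chr19:34583531-34588731), all on the plus strand, encode tetratricopeptide repeat proteins that bind viral RNA or one another. Rsad2 (chr12:26442746-26456452, minus strand) encodes viperin, an antiviral radical SAM enzyme. Oasl2 (chr5:114896936-114912234, plus strand) encodes a relative of the oligoadenylate synthetases. Stat2 (chr10:128270559-128292849, plus strand) encodes the ISGF3 subunit. Irf7 (chr7:141262706-141266481, minus strand) encodes the factor that amplifies interferon production, and Irf1 (chr11:53770014-53778374, plus strand) encodes a factor that also responds to interferon gamma through the gamma-activated site (GAS). Fragments were counted without strand over all exons of a gene: 20.0% of the exonic bases of Irf1 are shared with Gm17334 and 1.19% of those of Irf7 with Phrf1, so these 2 levels are uncertain by the fragments not assigned there. Ifit1 and Ifit3 have related neighbours of the same family (Ifit1bl1, Ifit1bl2 and Ifit3b), whose likeness in sequence was not measured here. Fragments mapping to several places were not counted, which makes the levels of Ifit1 and Ifit3 uncertain as well.

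The upstream sequences of 5 of the 9 genes are shown because they hold a match to the letters of the ISRE. The ISRE is the element through which ISGF3 acts. Of these 5 genes, 4 (Isg15, Ifit1, Ifit3 and Stat2) were among those that differed between the sexes below. So were 3 of the 4 genes without a match in the windows searched (Ifit2, Irf1 and Irf7), which may hold an ISRE elsewhere or in other letters. Each run is the 250 bases before the transcription start of the RefSeq annotation, 5′ to 3′ in the direction of the gene (RefSeq, GRCm38.p6), with every match to the ISRE letters, GAAA then any 2 bases then GAAA, on either strand in capitals. The runs are chr4:156200819-156201068 on the minus strand for Isg15, chr19:34640639-34640888 and chr19:34583279-34583528 on the plus strand for Ifit1 and Ifit3, chr12:26456453-26456702 on the minus strand for Rsad2 and chr10:128270248-128270497 on the plus strand for Stat2.
Isg15: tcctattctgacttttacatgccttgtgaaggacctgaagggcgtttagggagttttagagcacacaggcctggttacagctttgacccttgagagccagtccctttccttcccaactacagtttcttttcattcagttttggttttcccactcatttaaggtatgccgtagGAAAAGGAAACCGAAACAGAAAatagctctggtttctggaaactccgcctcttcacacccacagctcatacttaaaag
Ifit1: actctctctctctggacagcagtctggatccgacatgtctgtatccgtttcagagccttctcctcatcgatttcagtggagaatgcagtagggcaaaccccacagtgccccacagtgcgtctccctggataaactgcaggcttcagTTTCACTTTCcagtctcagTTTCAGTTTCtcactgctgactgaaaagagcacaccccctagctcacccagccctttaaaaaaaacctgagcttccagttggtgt
Ifit3: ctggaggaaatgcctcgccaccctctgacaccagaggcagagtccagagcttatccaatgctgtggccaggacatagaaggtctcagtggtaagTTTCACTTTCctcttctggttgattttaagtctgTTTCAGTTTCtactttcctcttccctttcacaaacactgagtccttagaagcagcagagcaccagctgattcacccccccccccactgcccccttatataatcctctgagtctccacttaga
Rsad2: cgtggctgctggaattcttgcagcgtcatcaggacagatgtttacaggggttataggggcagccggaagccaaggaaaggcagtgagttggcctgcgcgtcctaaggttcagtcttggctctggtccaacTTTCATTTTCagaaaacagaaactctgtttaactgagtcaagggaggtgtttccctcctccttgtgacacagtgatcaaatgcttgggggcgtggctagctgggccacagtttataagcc
Stat2: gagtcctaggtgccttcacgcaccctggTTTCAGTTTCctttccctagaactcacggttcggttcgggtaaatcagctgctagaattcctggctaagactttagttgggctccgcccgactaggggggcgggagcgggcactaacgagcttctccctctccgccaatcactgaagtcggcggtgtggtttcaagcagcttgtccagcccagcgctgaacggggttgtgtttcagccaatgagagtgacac
Isg15 held 3 matches that overlap each other, starting 78, 72 and 66 bases before the start of transcription. Ifit1 held matches 104 and 85 bases before the start and Ifit3 matches at 156 and 122 bases, in both genes on the opposite strand. Rsad2 held 1 match, 120 bases before the start, and Stat2 held 1 match, 222 bases before the start. In windows of 300 bases (250 before to 50 after a start), the ISRE letters occurred in 5 of the 9 genes, against 3.99% of 27025 genes with a window and 3.44% of 32851 windows. The GAS letters TTCNNNGAA occurred in Irf1 (90 bases before the start) and in Ifit2 (241 bases before), against 9.55% of genes. Irf1 and Ifit2 had more than 1 annotated start, and these matches lay before the most upstream of them. The ARE letters TGACNNNGC occurred in Oasl2 (56 bases before the start), Rsad2 (231 bases) and, near the far end of the window, Irf7, against 14.0% of genes. Both strands were searched, no ISRE match in these genes overlapped a GAS or ARE match, and a match of letters is not a measured binding site.

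Libraries held 13042039 to 19273245 assigned fragments, and the 9 genes had 40 to 634 fragments each in a library. Levels are given as CPM, the fragments of a gene scaled to a common library total with trimmed-mean (TMM) factors over all 12 libraries. Keap1 itself had 11.9, 12.95 and 11.02 CPM in female KO-labelled libraries, against 9.56, 7.18 and 7.95 CPM in female Het libraries. In males Keap1 had 6.30, 7.74 and 7.70 CPM in KO-labelled libraries, against 9.78, 5.33 and 8.08 CPM in Het libraries. Its log2 fold change was 0.54 in females (adjusted p = 0.186 by edgeR) and -0.09 in males (adjusted p = 0.936), so counts over all exons, which cannot show the loss of single exons, did not check the KO label, and the groups are called by their labels. Of 10 NRF2 target genes, 8 were called higher in female KO-labelled than female Het libraries, against 1.29% of all genes tested. In males 5 of the 10 were called higher in KO-labelled libraries, against 0.704%, and 2 had log2 fold changes below 0, the lowest at -1.47. These calls are at an adjusted p under 0.05 by edgeR. Pax7 had 10.7 to 15.5 CPM in females and 10.1 to 30.0 CPM in males, so the labelled cell type was present in every library. Markers of leukocytes, endothelium and fibro-adipogenic progenitors were detected too, and their levels stand beside the results below. In such bulk samples, fewer cells of a type and less RNA per cell cannot be told apart.

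All 9 genes were expressed at low to moderate levels. Per kilobase of exon, averaged over the 12 libraries, the order was Irf1 (5.93 CPM per kb), Isg15 (5.82), Ifit1 (5.32), Stat2 (3.27), Ifit2 (3.07), Irf7 (2.77), Ifit3 (2.47), Rsad2 (1.39) and Oasl2 (0.924). The ranges of every pair of neighbours in this order overlapped across libraries, as for Irf1 (3.08 to 10.7 CPM per kb) and Isg15 (3.06 to 9.20 CPM per kb), or for Rsad2 (0.833 to 2.48 CPM per kb) and Oasl2 (0.437 to 1.55 CPM per kb). Ifit1 varied most between libraries, with its highest level 6.22-fold its lowest, and Ifit3 least, with 2.74-fold. By group mean, male Het libraries had the highest CPM of the 4 groups for each gene except Irf1, highest in male KO-labelled libraries, and Oasl2, highest in female KO-labelled libraries.

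**Figure D1:**
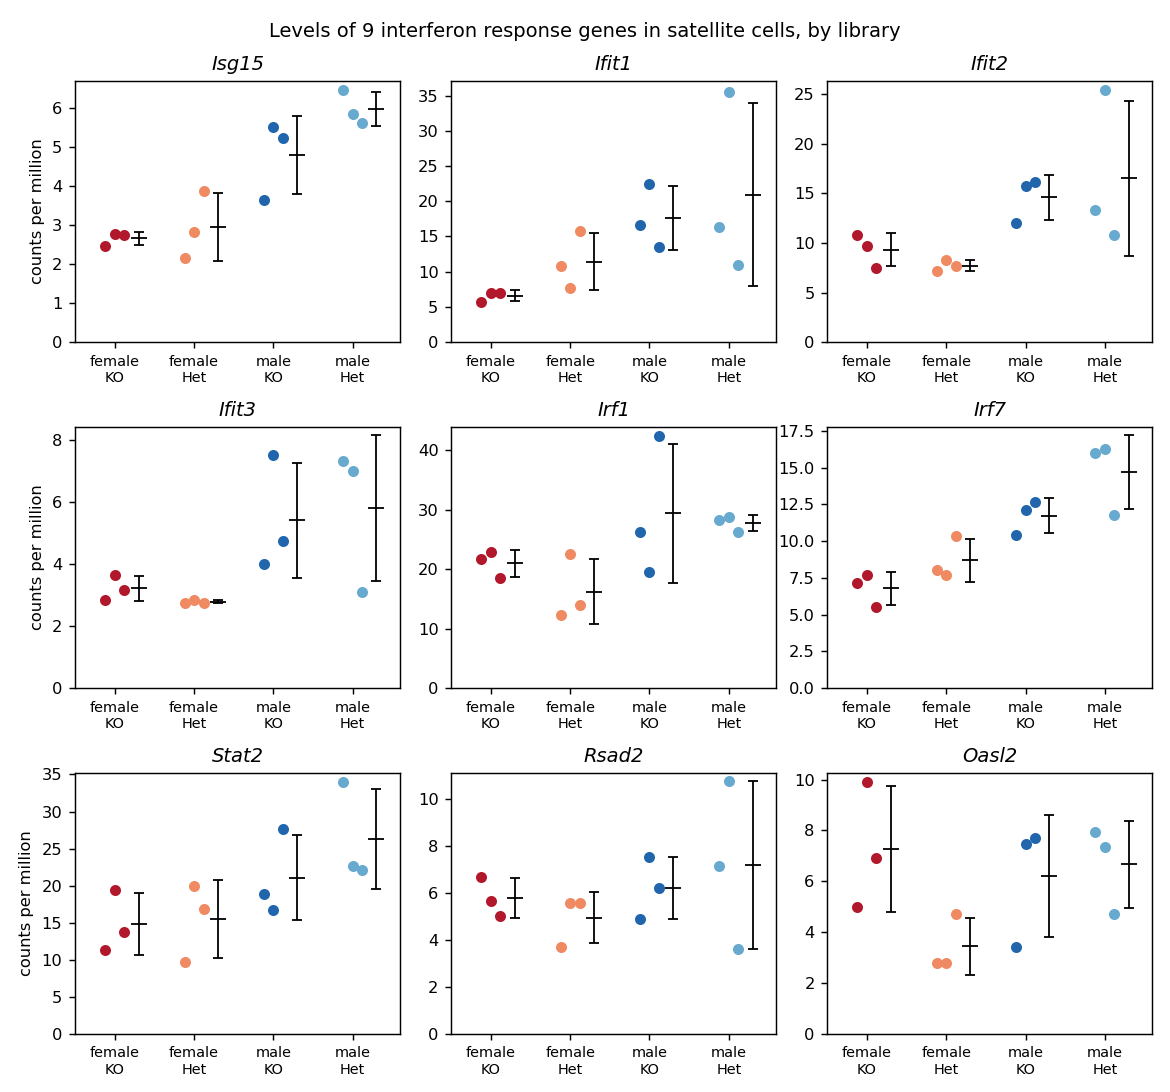
Level of each of the 9 genes (vertical axis, CPM) in the 3 libraries of each group (points), with the mean and SD beside them (bar with whiskers, n = 3). For Irf7 the 6 female libraries lie at 5.51 to 10.3 CPM and the 6 male libraries at 10.4 to 16.3 CPM, while for Oasl2 and Rsad2 the sexes overlap.

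In females, the interferon genes did not move together with the KO label, and none of the 9 passed the test. The largest difference was a higher level of Oasl2 in KO-labelled cells, and Ifit1 had the largest difference in the other direction. By edgeR's quasi-likelihood test with Benjamini-Hochberg adjustment over 14036 genes, 0 of the 9 had an adjusted p under 0.05, against 2.27% of all genes tested (1.29% higher and 0.983% lower). At an unadjusted p under 0.05 there were 2 of 9, Oasl2 and Ifit1, against 17.9% of all genes, a share close to the background. DESeq2 called 1 (Oasl2) and limma voom 0. The median log2 fold change of the 9 genes was 0.21, with 5 above 0 and 4 below, against 0.004 over all genes tested.

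Among the antiviral effectors, Oasl2 had 4.997, 9.89 and 6.91 CPM in female KO-labelled libraries, against 2.79, 2.78 and 4.72 CPM in female Het libraries. The lowest KO-labelled library was above the highest Het library. The fitted log2 fold change was 1.08 ± 0.312 (SE, 95% interval 0.40 to 1.75), a 2.11-fold difference with an adjusted p of 0.103 by edgeR and 0.0243 by DESeq2. Over the other edgeR and voom settings its adjusted p ran up to 0.328, and it was 0.00758 when no filter on low counts was used.

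Ifit1 went the other way, with 5.72, 7.01 and 7.03 CPM in female KO-labelled libraries, against 10.8, 7.71 and 15.8 CPM in female Het libraries. These groups did not overlap either, but the gap was small and the Het libraries were widely spread. The log2 fold change was -0.80 ± 0.261 (SE, 95% interval -1.36 to -0.23), with an adjusted p of 0.143 by edgeR's quasi-likelihood test. Without Hetz165 the adjusted p of Ifit1 was 0.0223, and without Hetz181 it was 0.454.

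Ifit2 and Ifit3, which lie beside Ifit1 on the same chromosome, had fitted values above 0 that did not pass. Ifit3 had 2.84, 3.66 and 3.15 CPM in female KO-labelled libraries, against 2.74, 2.83 and 2.76 CPM in female Het libraries. The lowest KO-labelled library lay just above all Het libraries, and the log2 fold change was 0.21 (95% interval -0.37 to 0.79, adjusted p = 0.727 by edgeR). Ifit2 averaged 9.32 ± 1.68 CPM in female KO-labelled libraries and 7.71 ± 0.555 CPM in female Het libraries (SD, n = 3 each), with a log2 fold change of 0.27 and an edgeR adjusted p of 0.531. Rsad2 averaged 5.77 ± 0.847 CPM in female KO-labelled libraries and 4.95 ± 1.07 CPM in female Het libraries, a log2 fold change of 0.22 with an edgeR adjusted p of 0.692. Isg15, the ubiquitin-like modifier, had 2.45, 2.76 and 2.75 CPM in female KO-labelled libraries, against 2.15, 2.83 and 3.87 CPM in female Het libraries. The Isg15 groups overlapped, and its log2 fold change was -0.15 (95% interval -0.81 to 0.50, adjusted p = 0.825 by edgeR).

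Among the transcription factors, Irf7 had 7.16, 7.67 and 5.51 CPM in female KO-labelled libraries, against 8.004, 7.71 and 10.3 CPM in female Het libraries. Every KO-labelled library was below every Het library, but the edges, 7.67 and 7.71 CPM, nearly touched. The log2 fold change of Irf7 was -0.36 (95% interval -0.85 to 0.13), with an edgeR adjusted p of 0.436. Irf1 had 21.7, 22.8 and 18.5 CPM in female KO-labelled libraries, against 12.2, 22.6 and 13.9 CPM in female Het libraries. Hetz165 lay within the range of the KO-labelled animals and the other 2 Het animals below it. Its log2 fold change was 0.37 (95% interval -0.12 to 0.86, adjusted p = 0.415 by edgeR), and without Hetz165 it was 0.69 with an adjusted p of 0.0348. Stat2 averaged 14.8 ± 4.196 CPM in female KO-labelled libraries and 15.5 ± 5.26 CPM in female Het libraries, with a log2 fold change of -0.07 and an edgeR adjusted p of 0.917. In all, 4 of the 9 genes had groups that did not overlap, 2 with KO-labelled cells above (Oasl2 and Ifit3) and 2 below (Ifit1 and Irf7), where 11.9% and 10.4% of all genes tested did so.

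**Figure D2:**
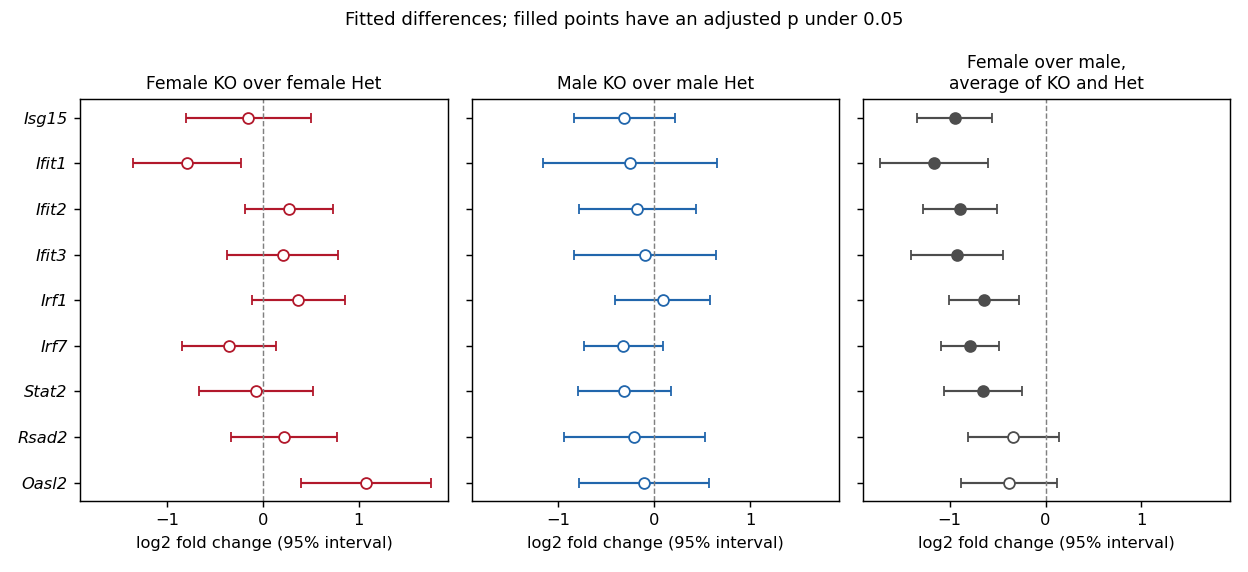
Fitted log2 fold change of each gene with its 95% interval (horizontal axis) for female KO-labelled over female Het, male KO-labelled over male Het, and female over male averaged over the labels. Filled points have an adjusted p under 0.05: there are 0 in the first and second panels and 7 in the third, where all 9 points lie below 0.

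In males, the 9 genes lay close to each other and slightly below 0, and none passed. Their log2 fold changes ran from -0.32 (Irf7) to 0.09 (Irf1), 8 of 9 below 0, with a median of -0.21 against 0.011 over all 13361 genes tested. By edgeR's quasi-likelihood test 0 of 9 had an adjusted p under 0.05 (0.561 to 0.953), against 0.861% of all genes (0.704% higher and 0.157% lower). At an unadjusted p under 0.05 there were 0 of 9, against 12.4% of all genes, and DESeq2 and limma voom each called 0.

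Isg15 was the gene whose groups did not overlap in males. It had 3.64, 5.51 and 5.22 CPM in male KO-labelled libraries, against 6.47, 5.83 and 5.62 CPM in male Het libraries. Every male KO-labelled library was below every male Het library, as for 7.76% of all genes tested, and in the other direction for 9.24%. The log2 fold change of Isg15 was -0.31 (95% interval -0.84 to 0.21, adjusted p = 0.673 by edgeR).

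Irf7 had 10.4, 12.1 and 12.7 CPM in male KO-labelled libraries, against 16.0, 16.3 and 11.8 CPM in male Het libraries. Hetz249 sat among the KO-labelled animals and the other 2 Het animals above them, and the log2 fold change was -0.32 (95% interval -0.74 to 0.09, adjusted p = 0.561 by edgeR). Stat2 had 18.9, 16.8 and 27.6 CPM in male KO-labelled libraries, against 34.0, 22.6 and 22.1 CPM in male Het libraries, a log2 fold change of -0.31 with an edgeR adjusted p of 0.643. The Stat2 groups overlapped through KO255. Irf1 had 26.3, 19.6 and 42.4 CPM in male KO-labelled libraries, against 28.3, 28.7 and 26.2 CPM in male Het libraries. The KO-labelled animals spanned the whole range of the Het animals, and the log2 fold change was 0.09 (95% interval -0.41 to 0.59, adjusted p = 0.927 by edgeR).

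In males, leaving out 1 Het animal turned the fitted values of Ifit1, Ifit2 and Rsad2. Ifit1 had 16.7, 22.5 and 13.5 CPM in male KO-labelled libraries, against 16.3, 35.6 and 10.9 CPM in male Het libraries. The highest and the lowest of these 6 values were both Het animals (Hetz245 and Hetz249), and the log2 fold change was -0.25 (95% interval -1.16 to 0.66, adjusted p = 0.863 by edgeR). Without Hetz245 the log2 fold change of Ifit1 was 0.36, that of Ifit2 0.27 and that of Rsad2 0.21, each above 0. With all animals, Ifit2 averaged 14.6 ± 2.29 CPM in male KO-labelled libraries and 16.5 ± 7.80 CPM in male Het libraries (SD, n = 3 each), with a log2 fold change of -0.18. Ifit3 averaged 5.42 ± 1.86 CPM in male KO-labelled libraries and 5.81 ± 2.35 CPM in male Het libraries, with a log2 fold change of -0.10. Rsad2 averaged 6.22 ± 1.31 CPM in male KO-labelled libraries and 7.18 ± 3.58 CPM in male Het libraries, with a log2 fold change of -0.21. Oasl2, the gene with the largest female difference, averaged 6.19 ± 2.40 CPM in male KO-labelled libraries and 6.66 ± 1.72 CPM in male Het libraries, with a log2 fold change of -0.10 (95% interval -0.78 to 0.58, adjusted p = 0.941 by edgeR).

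The study asks whether the effect of Keap1 depends on sex, which for these genes is the difference of the female and male log2 fold changes in a fit of all 12 libraries. None of the 9 passed (0 of 9 by edgeR's quasi-likelihood test and 0 by DESeq2), against 0.00677% of 14772 genes. At an unadjusted p under 0.05 there was 1 of 9, Oasl2, against 12.4% of all genes. The female change of Oasl2 exceeded the male change by 1.19 ± 0.476 on the log2 scale (SE, 95% interval 0.18 to 2.19), with an adjusted p of 0.330 by edgeR. For the other 8 genes the difference ran from -0.54 (Ifit1) to 0.46 (Ifit2), and each interval held 0. Averaged over the sexes, 0 of 9 differed between KO-labelled and Het libraries by edgeR and 0 by DESeq2, against 3.41% of all genes, and 1 of 9 (Irf7) did at an unadjusted p under 0.05, against 17% of all genes. The averaged log2 fold change of Irf7 was -0.34 (95% interval -0.64 to -0.04, adjusted p = 0.232 by edgeR), that of Ifit1 was -0.53 (95% interval -1.09 to 0.04), and that of Oasl2 was 0.49 (95% interval -0.01 to 0.99).

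The counts of the interferon genes themselves were at or near 0. Of 21 genes for type I, II and III interferons (Ifnb1, the Ifna genes and Ifng among them), 13 had no fragment in any of the 12 libraries, and the other 8 had 22 fragments in all, with at most 3 in a library. Ifnb1, the type I interferon most cell types can make, had 1 fragment in all, and none of the 21 had enough fragments to be tested. A count of 0 allows up to 0.144 to 0.231 CPM, the level of 3 fragments in a library, so lower levels were not detectable at this depth. This floor holds only for fragments that map to 1 place. Fragments mapping to several places were not counted, and the likeness in sequence among the Ifna genes and other related interferon genes was not measured here. A count of 0 for such genes therefore does not bound their level.

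Of the genes for receptors and JAK kinases, together with Stat3 and Irf9, 10 had enough fragments to be tested, and none passed with the KO label in either sex. Ifnlr1, the receptor chain for type III interferons, had 3 fragments over the 12 libraries and was not tested. Of the 10, 0 passed in females (1 at an unadjusted p under 0.05, DESeq2 and voom 0) and 0 in males (4 at an unadjusted p under 0.05, DESeq2 1 and voom 0). The lowest p in males belonged to Ifngr1, the ligand-binding chain of the interferon gamma receptor, with 222 ± 21.9 CPM in KO-labelled and 147 ± 23.7 CPM in Het libraries (log2 fold change 0.60, adjusted p = 0.0728 by edgeR). Its partner Ifngr2 had 32.0 ± 6.11 CPM in male KO-labelled and 21.5 ± 1.87 CPM in male Het libraries (log2 fold change 0.58, adjusted p = 0.171 by edgeR). In females the lowest p belonged to Irf9, the DNA-binding partner in ISGF3 (21.0 ± 4.74 CPM in KO-labelled and 28.1 ± 3.85 CPM in Het libraries; log2 fold change -0.42; adjusted p = 0.274 by edgeR), and to Jak1 (log2 fold change -0.21, adjusted p = 0.462). From here on, a pair of values in parentheses after a gene is its log2 fold change and then its edgeR adjusted p.

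Sensors of foreign nucleic acid and the other IRF factors gave no call within a sex. Of 13 sensor and adaptor genes tested, 0 passed in females (3 at an unadjusted p under 0.05, DESeq2 and voom 0) and 0 in males (2 at an unadjusted p under 0.05, DESeq2 and voom 0). Averaged over the sexes, 1 of the 13 was higher, Tmem173, which encodes the DNA-sensing adaptor STING, against 2.15% of all genes called higher. It had 28.2, 24.7 and 36.3 CPM in female KO-labelled libraries, against 19.8, 25.7 and 16.1 CPM in female Het libraries. In males Tmem173 had 33.9, 27.5 and 51.0 CPM in KO-labelled libraries, against 22.6, 21.5 and 26.7 CPM in Het libraries, which did not overlap. The averaged log2 fold change was 0.60 ± 0.154 (SE), with an adjusted p of 0.0379 by edgeR. It was 0.0577 with upper-quartile factors and 0.0616 to 0.118 when any 1 library other than Hetz165, KO178 or KO247 was left out, so the call was lost there. The sensor genes with the lowest p within a sex, besides Tmem173 (0.67 in males, adjusted p = 0.194 by edgeR), were the adaptor Ticam1 (0.59 in females, 0.195), the kinase Tbk1 (-0.36 in females, 0.197) and the RNA sensor Ddx58 (0.67 in males, 0.208), each given as a log2 fold change and its adjusted p. Of the other IRF genes, 0 of 5 passed in females and 0 of 4 in males by edgeR, DESeq2 and voom (0 and 1 at an unadjusted p under 0.05). Irf3 (-0.14 in females), Irf8 (-0.29 in females), Irf5 (0.53 in males) and Irf2 (0.30 in males) had the lowest p, at adjusted p-values of 0.276 to 0.701 by edgeR.

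Of 32 other interferon-stimulated genes tested in females, 1 passed, Isg20, and it was lower in KO-labelled cells. Over all genes tested in females, 0.983% were called lower. Isg20 encodes an exonuclease that degrades single-stranded RNA. It had 15.8, 18.3 and 18.3 CPM in female KO-labelled libraries, against 29.4, 26.6 and 37.2 CPM in female Het libraries. The groups did not overlap, and the log2 fold change was -0.83 ± 0.171 (SE, adjusted p = 0.0235 by edgeR). The call was lost when any animal but Hetz165 was left out: the adjusted p was 0.0616 without Hetz164, 0.0766 without Hetz181, 0.124 without KO166, 0.0768 without KO178 and 0.0828 without KO188. In males Isg20 averaged 79.2 ± 8.84 CPM in KO-labelled and 81.2 ± 17.9 CPM in Het libraries, and the difference between the sexes in its change was -0.80 ± 0.245 (SE), which did not pass (adjusted p = 0.218 by edgeR). The median log2 fold change of these 32 genes was -0.01. Of 34 such genes tested in males, 0 passed (1 at an unadjusted p under 0.05, DESeq2 and voom 0), and the lowest p belonged to the tethering factor Bst2 (0.46, adjusted p = 0.310) and to Phf11d (0.67, 0.502). The 4 enzymes that attach or remove ISG15 (Uba7, Ube2l6, Herc6 and Usp18) gave 0 calls in either sex by edgeR, DESeq2 and voom, and 0 at an unadjusted p under 0.05. All 4 had log2 fold changes below 0 in females (-0.41 for Herc6 and -0.38 for Uba7 had the lowest p) and above 0 in males (0.48 for Uba7 and 0.67 for Usp18 had the lowest p), and none of the 4 differences passed (adjusted p of 0.372 or more by edgeR). At an unadjusted p under 0.05 there were 2 of the 4 differences by edgeR, against 12.4% of all genes.

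Among genes of antigen presentation and the interferon-gamma-inducible GTPases, only H2-D1 and H2-K1 were called with the KO label averaged over the sexes, both lower. Of 24 tested, 0 passed in females by edgeR (6 at an unadjusted p under 0.05, DESeq2 1 and voom 0) and 0 in males (2 at an unadjusted p under 0.05, DESeq2 and voom 0). Averaged over the sexes, 2 of 24 were lower, against 1.27% of all genes called lower: the class I heavy chain genes H2-D1 and H2-K1. The median log2 fold change of the 24 in this average was -0.08, with 14 below 0 and 10 above. H2-D1 averaged 759 ± 74.6 CPM in female KO-labelled and 1078 ± 13.4 CPM in female Het libraries, and 1558 ± 151 CPM in male KO-labelled and 1864 ± 311 CPM in male Het libraries (averaged log2 fold change -0.38, adjusted p = 0.0448 by edgeR). H2-K1 averaged 518 ± 52.1 CPM in female KO-labelled and 677 ± 71.2 CPM in female Het libraries, and 940 ± 138 CPM in male KO-labelled and 1246 ± 195 CPM in male Het libraries (-0.39, adjusted p = 0.0484). The call of H2-D1 was lost when any 1 library other than Hetz165, Hetz245 or KO255 was left out (adjusted p of 0.0605 to 0.143), and that of H2-K1 when any 1 other than Hetz181, Hetz245 or KO255 was left out (0.0565 to 0.147). H2-D1, H2-K1 and their relatives are similar in sequence, so their counts are uncertain where fragments mapped to several of them. Within a sex the lowest p belonged to H2-D1 (-0.51, adjusted p = 0.0865) and Cd274 (-0.81, 0.195) in females, and to H2-K1 (-0.40, 0.305) and Nlrc5 (-0.62, 0.380) in males, by edgeR. Of the inhibitors of the pathway, 0 of 10 passed in females and 0 of 9 in males by edgeR, DESeq2 and voom (2 each at an unadjusted p under 0.05). Their lowest p-values belonged to Socs1 (-0.40, adjusted p = 0.196) and Samhd1 (-0.55, 0.204) in females and to Pias1 (0.30, 0.353) and Ptpn11 (0.29, 0.379) in males.

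Of the markers of other cell types, a few leukocyte markers passed with the KO label in females and none of the endothelial or fibro-adipogenic markers did. Over all genes tested, 0.983% were called lower in females, 0.157% in males and 1.27% averaged over the sexes. Of 16 tested leukocyte markers, 15 had log2 fold changes below 0 in female KO-labelled libraries and 3 passed: Cd74 (-1.43, adjusted p = 0.00389 by edgeR), H2-Ab1 (-1.51, 0.0108) and Lyz2 (-1.20, 0.0392). In the 12-library fit Cd74 and H2-Ab1 did not pass (adjusted p of 0.160 and 0.134), and without Hetz164 or KO188 neither H2-Ab1 (0.0616 and 0.0651) nor Lyz2 (0.158 and 0.164) passed, nor Lyz2 without KO178 (0.130). Summed over 21 leukocyte markers, levels were 58.7 to 87.1 CPM in female KO-labelled libraries and 126 to 190 CPM in female Het libraries. Over all 12 libraries Cd74 (7990), H2-Ab1 (3995), Lyz2 (2906), H2-Aa (1816) and H2-Eb1 (1744) had the most fragments, so the sums mostly follow them. Ptprc had 354 fragments. None of the 21 was at 0 throughout a female group. In males 1 of the 21, Siglech, was at 0 throughout the KO-labelled group. The male sums were 82.4 to 117 CPM in KO-labelled and 42.1 to 149 CPM in Het libraries, and 0 of 9 tested passed (edgeR; 0 at an unadjusted p under 0.05, DESeq2 and voom 0), the lowest p belonging to Cd68 (-0.39, adjusted p = 0.622) and Ptprc (0.25, 0.930). Of 12 endothelial markers, 0 passed in either sex by edgeR (4 in females and 1 in males at an unadjusted p under 0.05, DESeq2 and voom 0), with Tie1 (0.88, adjusted p = 0.148) and Tek (-0.53, 0.165) lowest in p in females and Tek (-0.61, 0.237) and Vwf (0.28, 0.673) in males. Of 12 satellite cell markers, 3 were lower in female KO-labelled libraries, Chrdl2 (-1.90, adjusted p = 0.000405), Cd34 (-0.96, 0.00610) and Spry1 (-1.08, 0.00736), and Chrdl2 was also lower in male KO-labelled libraries (-1.37, 0.00162). In females 10 of the 12 lay below 0 (median log2 fold change -0.46), and DESeq2 called 5 and voom 3. In males 6 lay below 0 (median -0.04), and both called 1. Their sum was 7722 to 9873 CPM in female KO-labelled and 11503 to 13070 CPM in female Het libraries. In males it was 16465 to 18140 CPM and 14663 to 17631 CPM, in that order. Over all 12 libraries Sdc4 (1699333), Vcam1 (437184) and Myf5 (273172) had the most fragments, so these sums mostly follow them. Averaged over the sexes, Chrdl2 (-1.64, 4.85e-06), Spry1 (-0.73, 0.00257), Cd34 (-0.54, 0.0122) and the endothelial Tek (-0.57, 0.0392) were lower. Tek went against its list: 11 of the 12 endothelial markers lay above 0 in this average (median log2 fold change 0.29). In females 11 of the 12 also lay above 0 (median 0.44), and in males 9 did. The call of Cd34 in females was lost without KO166 (0.0566), that of Spry1 without KO166 (0.0624) or KO188 (0.0513), and the averaged call of Tek without any 1 library other than Hetz165, KO166, Hetz204 or KO255 (0.0741 to 0.122). Of 12 fibro-adipogenic markers, 0 passed in either sex by edgeR (5 in females and 1 in males at an unadjusted p under 0.05, DESeq2 3 and 0, voom 0), with Cd55 (-1.03, 0.0668) and Pi16 (-1.67, 0.0827) lowest in p in females and Gsn (0.36, 0.284) and Mfap5 (0.42, 0.586) in males. The part of these cells in the levels of Oasl2, Ifit1, Isg20 and the class I genes was not tested.

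**Figure D3:**
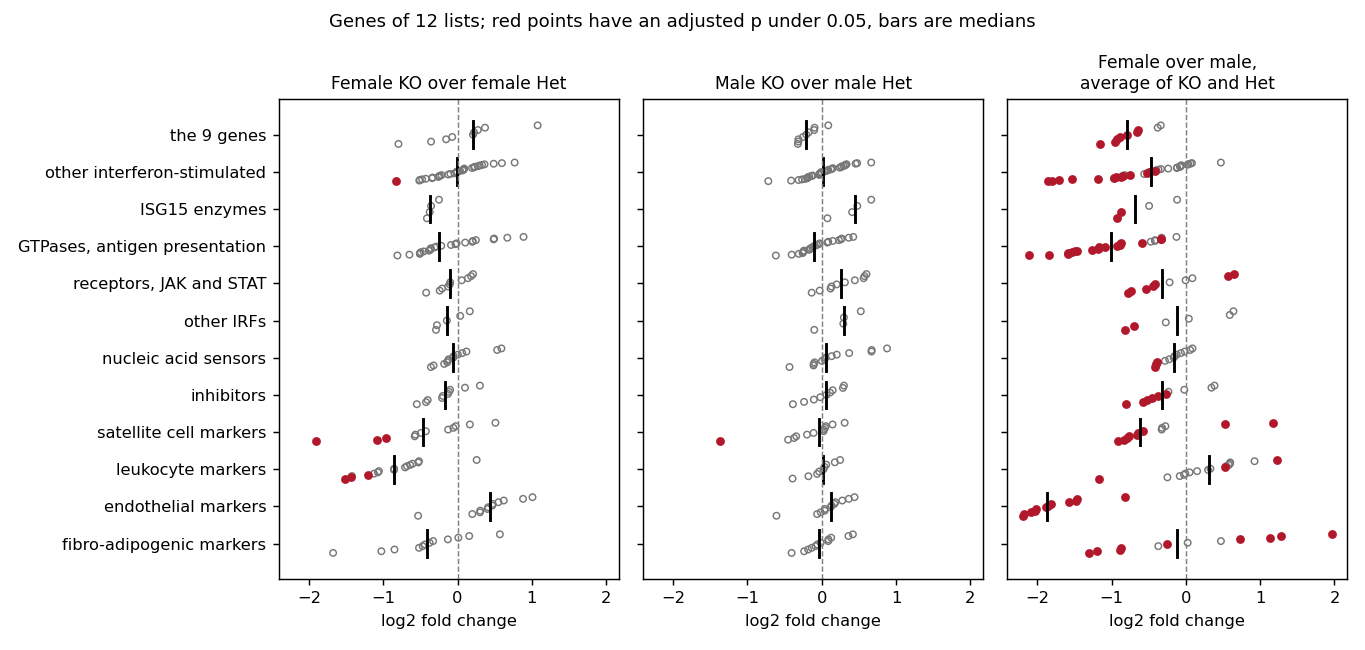
Fitted log2 fold change of each tested gene (points; horizontal axis) in the 9 genes and in 11 related or marker lists, with the median of each list as a bar; red points have an adjusted p under 0.05. In the third panel the 9 genes have a median of -0.79, and all 12 endothelial markers lie below 0 with a median of -1.87.

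Sex was the comparison in which these genes differed. Of the 9 genes, 7 were lower in female than in male cells, averaged over the KO and Het labels, and the other 2, Rsad2 and Oasl2, did not pass. The count of 7 of 9 lower stands against 14.6% of 14772 genes called lower, 13.2% called higher and 27.8% called in either direction by edgeR's quasi-likelihood test, and DESeq2 called the same number. At an unadjusted p under 0.05 there were 7 of 9, against 38.7% of all genes. The median log2 fold change was -0.79, against 0.01 over all genes. Females and males were counted in separate tables, so sex and anything else that differed between the 2 tables cannot be told apart.

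Ifit1 had the largest difference, with 5.72 to 15.8 CPM in the 6 female libraries and 10.9 to 35.6 CPM in the 6 male libraries. Its log2 fold change was -1.16 ± 0.264 (SE, 95% interval -1.73 to -0.60, adjusted p = 0.00490 by edgeR), although the female Het library Hetz181 lay above 2 male libraries. Isg15 had 2.15 to 3.87 CPM in female libraries and 3.64 to 6.47 CPM in male libraries. The Isg15 ranges met at 1 pair of libraries, and the log2 fold change was -0.95 ± 0.187 (SE, adjusted p = 0.00119). Ifit3 had 2.74 to 3.66 CPM in female libraries and 3.10 to 7.52 CPM in male libraries, with a log2 fold change of -0.93 ± 0.227 (SE, adjusted p = 0.00584). Apart from male Hetz249, every male library was above every female library for Ifit3. Ifit2 had 7.20 to 10.8 CPM in female libraries and 10.8 to 25.4 CPM in male libraries, a log2 fold change of -0.89 ± 0.184 (SE, adjusted p = 0.00172).

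Among the factors, Irf7 had 5.51 to 10.3 CPM in female libraries and 10.4 to 16.3 CPM in male libraries, with a log2 fold change of -0.79 ± 0.144 (SE, adjusted p = 0.000618 by edgeR). For Irf7 and Ifit2, all 6 female libraries were below all 6 male libraries, as for 5.1% of all genes, but by a narrow margin. Stat2 had 9.67 to 19.9 CPM in female libraries and 16.8 to 34.0 CPM in male libraries, with a log2 fold change of -0.65 ± 0.194 (SE, adjusted p = 0.0190). Leaving out female KO166, male Hetz204 or male KO255 raised the adjusted p of Stat2 to 0.0549, 0.0657 and 0.0608 in that order, and the call was lost. Irf1 had 12.2 to 22.8 CPM in female libraries and 19.6 to 42.4 CPM in male libraries, with a log2 fold change of -0.64 ± 0.173 (SE, adjusted p = 0.0107).

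Rsad2 and Oasl2 overlapped between the sexes. Rsad2 had 3.71 to 6.68 CPM in female libraries and 3.61 to 10.8 CPM in male libraries, with a log2 fold change of -0.34 (95% interval -0.81 to 0.14, adjusted p = 0.289 by edgeR). Oasl2 had 2.78 to 9.89 CPM in female libraries and 3.43 to 7.93 CPM in male libraries, with a log2 fold change of -0.38 (95% interval -0.88 to 0.12, adjusted p = 0.256). These intervals hold both 0 and differences of the size seen for Irf1.

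Within the KO label alone, with each log2 fold change followed by its adjusted p, 3 of the 9 genes passed between the sexes, Isg15 (-0.87, adjusted p = 0.0291 by edgeR), Irf7 (-0.81, 0.0108) and Ifit1 (-1.43, 0.0171). Within Het animals alone, 5 passed: Isg15 (-1.03, 0.0183), Ifit2 (-1.12, 0.0119), Ifit3 (-1.08, 0.0410), Irf7 (-0.78, 0.0202) and Irf1 (-0.79, 0.04998, just under the threshold). Isg15 and Irf7 were thus called in both. The direction of Oasl2 turned, with 0.21 in KO-labelled animals (adjusted p = 0.695) and -0.97 in Het animals (adjusted p = 0.0794). By CPM, the 3 female KO-labelled libraries were all below the 3 male KO-labelled libraries for 5 genes (Isg15, Ifit1, Ifit2, Ifit3 and Irf7), against 18% of all genes. The 3 female Het libraries were all below the 3 male Het libraries for 6 genes (Isg15, Ifit2, Ifit3, Irf1, Irf7 and Stat2), against 14.4%.

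Apart from Ifngr2 and Tyk2, every gene of the other pathway lists that passed was lower in females. Over all genes tested, 14.6% were called lower in females and 13.2% higher, and some of the lists below lie near these shares. Of 10 receptor and signalling genes, 5 were lower, among them Stat3 (-0.74, adjusted p = 4.75e-05 by edgeR), Irf9 (-0.78, 0.000189) and the receptor chain Ifnar2 (-0.54, 0.00642), and 2 were higher, Ifngr2 (0.57, 0.00274) and Tyk2 (0.65, 0.0250). Of 6 other IRF genes 2 were lower, Irf3 (-0.70, 0.000151) and Irf8 (-0.83, 0.0279), and of 13 sensor genes 3 were lower, Myd88 (-0.39, 0.00349), Ifih1 (-0.42, 0.0102) and Ticam1 (-0.40, 0.0471). Of 35 other interferon-stimulated genes 13 were lower and 0 higher. These included Isg20 (-1.80, 4.26e-08), the membrane restriction factor Ifitm3 (-0.87, 1.35e-05), Trim30a (-1.71, 0.000105) and Rtp4 (-1.19, 0.000199). Of the 4 ISG15 enzymes 2 were lower, the ligase Herc6 (-0.93, 0.00172) and the deconjugating protease Usp18 (-0.88, 0.0333).

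Among the other pathway lists, the highest share of calls was in antigen presentation and the GTPases. Of these, 19 of 24 were lower in females and 0 higher, with a median of -1.01. Of all genes, 14.6% were called lower and 13.2% higher. Ifi47, an immunity-related GTPase, averaged 4.59 ± 0.568 CPM in female KO-labelled and 3.99 ± 0.268 CPM in female Het libraries, and 13.7 ± 2.25 CPM in male KO-labelled and 11.7 ± 3.05 CPM in male Het libraries (-1.58, adjusted p = 2.71e-06 by edgeR). H2-D1 (-0.93, 5.29e-06), H2-K1 (-0.89, 1.46e-05) and Gbp6 (-1.49, 1.59e-05) followed. Inhibitors were lower too, 6 of 10 with 0 higher, led by the phosphatase genes Ptpn2 (-0.52, 0.000200), Ptpn11 (-0.46, 0.000809) and Ptpn1 (-0.37, 0.00510) and by Samhd1 (-0.57, 0.00485).

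Markers of other cell types differed between the sexes as well, where 14.6% of all genes were called lower in females and 13.2% higher. All 12 endothelial markers were lower in females, with a median of -1.87, led by Vwf (-1.47, adjusted p = 1.43e-05 by edgeR), Pecam1 (-1.48, 4.99e-05), Tie1 (-2.03, 6.07e-05) and Fabp4 (-1.88, 0.000116). Summed, they were 63.6 to 106 CPM in female KO-labelled and 78.3 to 80.5 CPM in female Het libraries, and 154 to 411 CPM in male KO-labelled and 243 to 256 CPM in male Het libraries, with none of the 12 at 0 throughout a group. The highest of these sums, 411 CPM, was in male KO255. Of 12 satellite cell markers, 7 were lower in females, Sdc4 (-0.91, 2.03e-05), Cd34 (-0.79, 8.82e-05), Spry1 (-0.77, 0.000269) and Pax7 (-0.58, 0.0200) among them, and 2 were higher, Cxcr4 leading (1.17, 2.45e-06). Their sum was 7722 to 13070 CPM over the 6 female libraries and 14663 to 18140 CPM over the 6 male libraries. It mostly follows Sdc4, Vcam1 and Myf5, and in females it was lower in every KO-labelled than in every Het library, as given above. Of 16 leukocyte markers 1 was lower, Cd68 (-1.17, 0.000276), and 2 were higher, C1qc (1.23, 0.0290) and Lyz2 (0.53, 0.0471). Of 12 fibro-adipogenic markers 5 were lower, Smoc2 (-0.87, 0.000599) and Mfap5 (-0.88, 0.00235) among them, and 4 were higher, with Lum (1.13, 3.29e-05) and Dcn (0.73, 0.00224) leading. The part of these cells in the lower interferon genes of females was not tested.

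Some animals were the lowest or the highest of their group for several of the 9 genes. How often this holds over all genes was not measured. Male Hetz249 was the lowest of its group for all 9 genes, with a median level 0.615 times the mean of the other 2 Het males, from 0.403 for Rsad2 to 0.920 for Irf1. Male Hetz245 was the highest of that group for 5 genes, with 2.61 times the mean of the others for Ifit1, 2.10 times for Ifit2 and 1.999 times for Rsad2. Male KO240 and female Hetz164 were each the lowest of their groups for 6 genes, and female KO178 was the highest of its group for 6. Stat2 and Irf1 shared their highest animal in the female Het (Hetz165) and male KO-labelled (KO255) groups, whereas Ifit1 was at its lowest there.

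**Figure D4:**
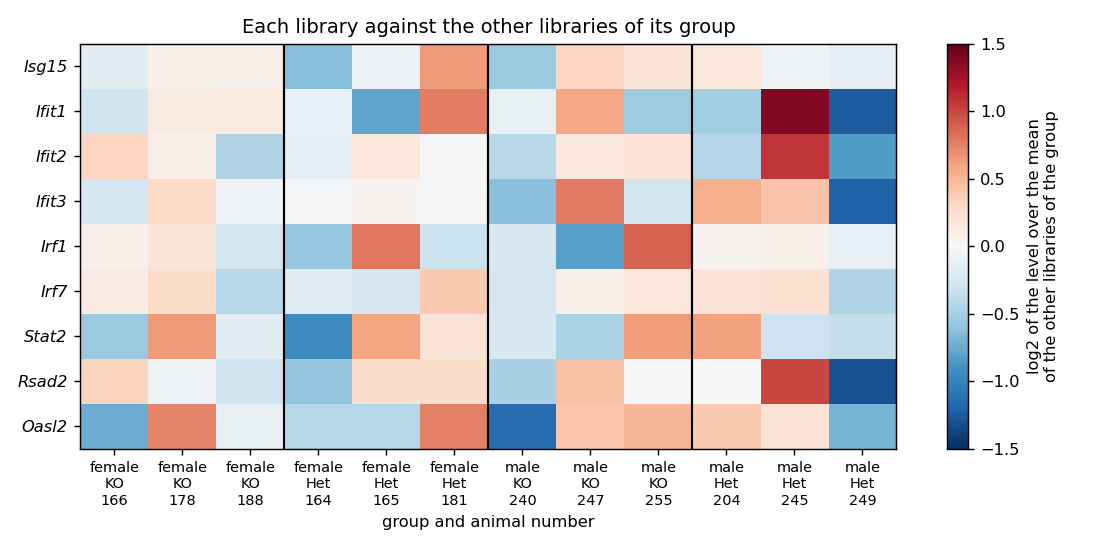
Level of each gene in each library over the mean of the other libraries of its group, as log2 (colour), with groups separated by black lines and animal numbers below. Hetz249 is below the others for all 9 genes, and Hetz245 is above them for Ifit1, Ifit2 and Rsad2.

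Genes outside the set that followed the same library-to-library pattern were ranked by Pearson's correlation with the mean standardised level of the 9 genes, over 12 libraries after the mean of each group was taken off, among 11123 genes. Mmp19, which encodes a matrix metalloproteinase, was most like it (r = 0.946, Spearman's rho = 0.930, and r = 0.897 without the 2 libraries farthest from the median). Pdgfc, a platelet-derived growth factor gene, followed (r = 0.935, rho = 0.930, 0.930 without the 2), then Srr, the serine racemase gene (0.928, 0.804, 0.853), Angptl1 (0.923, 0.867, 0.878) and Gm21738 (0.899, 0.804, 0.824), each with r, rho and r without the 2 libraries in that order. These values describe likeness over libraries that share depth and group size, and the genes were picked as the highest of many.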

How the data were processed

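Total RNA of freshly isolated satellite cells was amplified by Smart-Seq2 and made into libraries with Tn5, per the labels' protocols. The authors deposited raw counts of fragments for each gene, obtained by running featureCounts 2.0.0 over the exons in Ensembl annotation release 99 (GRCm38), per the file headers. Strand was ignored, and fragments that mapped to several places or overlapped several genes were not assigned, per the file headers. STAR, Subread, DESeq2 and mm10 are named per the submitters' processing notes. Females and males were deposited as 2 tables, and both held 0 columns of other samples. Of 55385 genes, 55144 were given a symbol from their identifier.

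Counts were tested with edgeR 4.0.16 (quasi-likelihood with robust estimation, TMM, filterByExpr with a minimum count of 10, Benjamini-Hochberg adjustment over all genes, threshold 0.05) in R 4.3.3. Within each table, KO-labelled libraries were set against Het libraries, while averages, differences and the sexes came from 1 fit of 12 libraries with 4 group means. A "call" or a gene that "passed" has an adjusted p under 0.05. Intervals are 95% and floors of 3 counts cover counting error only, since Smart-Seq2 has no molecular identifiers. The script was tested on simulated counts. Alternatives were DESeq2 1.42.0, its size factors or upper-quartile factors in edgeR, no filter, limma 3.58.1 voom, the 12-library fit and leaving out each library. The sexes within each label were compared as an alternative added after seeing the data. Libraries of a group differed more than sampling of fragments gives (chi-square over its degrees of freedom, 12.4 to 65.2), and none was merged with another. The labels give each an animal of its own, which this value cannot check, since a repeat amplification of 1 RNA would also exceed that noise.

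The 9 genes and all lists were chosen with earlier results of these data known. A further signalling gene is not reported here. All 9 are named in each comparison. Of each other list, up to 4 genes with the lowest p among those that passed are named, or the 2 with the lowest p where none did. For the averages and the differences, the text names only the genes of these lists that passed, besides the differences given for Isg20 and the ISG15 enzymes. Tyk2, Pax7, Ifnb1 and Ifnlr1 lie outside this rule and were named after their values were seen.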

Additional observations from a re-analysis of the deposited data

How the results depend on the processing

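In females, 0 of the 9 genes passed between KO-labelled and Het libraries, with 1 by DESeq2 (Oasl2), 2 without a filter on low counts (Oasl2 and Ifit1) and 0 to 2 when leaving out a library (Irf1 and Ifit1 without female Hetz165). In males 0 passed under every alternative run. For the average over the sexes, 1 passed without a filter (Ifit1, adjusted p = 0.0394) and 0 under the others, and for the difference 0 under all. Between the sexes, 7 of 9 passed with the other tool, scalings and filter, 6 or 7 when leaving out a library (Stat2 being lost), and, within a label, 3 in KO animals alone and 5 in Het animals alone. The cause of these changes was not tested. No paired analysis was possible because animal numbers are unique to each animal and no label ties animals of different groups.

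Directions turned for several values, not all of them near 0. In the main fits Ifit1 was at -0.25 in males and Oasl2 at -0.38 between the sexes. Leaving out each library gave log2 fold changes in females of -0.34 to 0.080 for Isg15 and -0.32 to 0.16 for Stat2. In males it gave -0.58 to 0.36 for Ifit1, -0.43 to 0.27 for Ifit2, -0.42 to 0.10 for Ifit3, -0.26 to 0.31 for Irf1, -0.33 to 0.17 for Oasl2 and -0.55 to 0.21 for Rsad2. For the average it gave -0.067 to 0.27 for Ifit2, -0.10 to 0.16 for Ifit3 and -0.15 to 0.22 for Rsad2, and upper-quartile factors gave -0.016 for Rsad2. For the difference it gave -0.12 to 0.12 for Irf7, -0.020 to 0.41 for Isg15 and -0.0028 to 0.48 for Stat2. Between the sexes, Oasl2 turned to 0.21 in KO animals alone.

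Counts over all genes moved more. In females 319 genes passed, with 723 by DESeq2, 1000 without a filter and 144 to 1479 when leaving out a library. In males 115 passed, with 280, 375 and 41 to 294. For the average 504 passed, with 843, 858 and 318 to 931, and for the difference 1 passed, with 238, 358 and 0 to 206, all in the same order. Between the sexes 4110 passed, and 1501 in Het animals alone. With 3 animals a group and 40 to 634 fragments a gene, the 95% interval of each of the 9 genes in each sex reached at least 0.59 from 0 on the log2 scale.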
